A study of Mus musculus with 4 samples.

Results

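The genes described here encode the acetyltransferases of the coactivator complexes SAGA and ATAC and their adaptors, some shared by both complexes and some found in 1 of them, measured in E14 mouse embryonic stem cells with and without depletion of Usp22. They are Kat2a, Kat2b, Tada1, Tada2a, Tada2b, Tada3, Yeats2 and Zzz3. Each was taken as the row of the deposited table whose platform annotation gave that symbol alone, and each of the 8 had 1 such probe set, so no choice between rows arose. They were 8 of 19938 named genes. RNA was hybridised to 4 one-colour Affymetrix arrays. In 2 control arrays the cells carried a lentiviral shRNA against luciferase (Luc), and in 2 depleted arrays a lentiviral shRNA against Usp22. The cells of both groups grew without feeders in serum with LIF and the inhibitors PD0325901 (of MEK) and CH99021 (of GSK3), a pair called 2i that holds stem cells in the naive state. The labels name neither the number of shRNA constructs nor the time after infection, and do not call the replicates separate cultures. The p-values thus reflect only how far these arrays differ among themselves, which may be technical. In limma this spread was pooled over all genes, so it is not that of the gene itself.

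SAGA and ATAC are large complexes that are brought to promoters and enhancers by transcription factors and acetylate histone H3, mostly at lysine 9. Both contain the same catalytic core, in which KAT2A (GCN5) or its paralog KAT2B (PCAF) binds an ADA2 protein, TADA3 and SGF29. The ADA2 paralog sets the complex, with TADA2B in SAGA and TADA2A in ATAC. SAGA alone also carries the deubiquitinase USP22, which removes ubiquitin from histone H2B and which is the target of the shRNA. Mouse embryos without Kat2a die during gestation, whereas mice without Kat2b are viable. The comparison asks whether the RNA of the acetyltransferase genes differs when the deubiquitinase of the same complex is reduced.

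RefSeq promoter windows of build GRCm38.p6, each 250 bases before to 50 bases after an annotated start, were found for 7 of the 8 genes (10 windows, with 2 for Kat2b and 3 for Zzz3). No promoter activity was measured, and 3 windows are shown: that of Kat2b, the single gene that passed the test, that of its paralog Kat2a, with which it is compared, and that of Yeats2, which had the next lowest p. The Kat2b window is the first of its 2, at chr17:53566721-53567020 on the plus strand, the Kat2a window is at chr11:100712418-100712717 on the minus strand, and the Yeats2 window is at chr16:20140813-20141112 on the plus strand. Capitals mark matches, on either strand, to the letters GGGCGG, called a GC box here, or to the letters CCAAT, named for themselves.
Kat2b: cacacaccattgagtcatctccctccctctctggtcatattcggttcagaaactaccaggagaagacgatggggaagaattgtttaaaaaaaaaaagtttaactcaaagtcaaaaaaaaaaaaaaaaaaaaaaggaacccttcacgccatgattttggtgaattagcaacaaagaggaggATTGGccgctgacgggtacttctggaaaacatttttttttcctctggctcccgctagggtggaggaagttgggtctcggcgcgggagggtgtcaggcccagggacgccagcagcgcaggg
Kat2a: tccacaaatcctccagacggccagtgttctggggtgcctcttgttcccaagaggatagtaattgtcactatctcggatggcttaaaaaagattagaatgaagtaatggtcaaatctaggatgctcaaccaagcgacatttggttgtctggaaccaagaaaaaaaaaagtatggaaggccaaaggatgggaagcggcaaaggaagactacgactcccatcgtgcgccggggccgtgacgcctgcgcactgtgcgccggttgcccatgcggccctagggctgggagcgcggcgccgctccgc
Yeats2: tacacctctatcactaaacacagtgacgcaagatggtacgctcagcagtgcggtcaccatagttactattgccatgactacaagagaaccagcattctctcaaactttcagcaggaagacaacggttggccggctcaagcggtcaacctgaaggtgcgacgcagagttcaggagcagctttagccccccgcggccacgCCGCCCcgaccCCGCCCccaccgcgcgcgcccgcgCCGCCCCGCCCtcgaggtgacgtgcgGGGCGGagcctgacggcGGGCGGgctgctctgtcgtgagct
The Kat2b window holds 11 CpG dinucleotides and 1 CCAAT match but no GC box, the Kat2a window 19 CpG and neither motif, and the Yeats2 window 30 CpG and 6 GC boxes, 2 of which overlap by a base. Over all 32851 windows the median was 7 CpG, and 35.7% held a GC box and 37.4% the CCAAT letters. No match was found in these 3 windows for the TATA box searched as TATAAA, which 13.6% of all windows held. The same was true of the E-box searched as CACGTG (7.15% of all windows), of the ETS core searched as CCGGAA (14.9%) and of the CRE searched as TGACGTCA (1.79%). Among the windows not shown, those of Tada2a and Tada2b held 45 and 43 CpG and that of Tada3 held 19. The 3 windows of Zzz3 held 6, 42 and 30, and the second window of Kat2b held 6 and neither motif.

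Control replicate 2 stood apart from the other arrays. Across genes, its log2 signal correlated at 0.941 with control replicate 1 and at 0.877 and 0.908 with the depleted arrays, against 0.978 between the depleted arrays (Pearson, across genes, which are not independent replicates). Values without this array are therefore given beside results that moved by over 1.5 times or changed sign when it was left out. Of 14 embryonic stem cell markers, 13 (Lin28a excepted) lay above the receptor background, a mean log2 signal of 6.99 that 95% of 1190 olfactory and vomeronasal receptor genes did not exceed, and their summed deposited intensity was 17570 to 18220 on the control and 17280 to 17670 on the depleted arrays. Both depleted arrays lay above both controls for 4 of the 14 stem cell markers and below for 6. The shares of all genes so placed were 27.4% and 33.3%. Of the 4 with the lowest p, Tbx3 (−0.67), Klf4 (−0.64) and Tfcp2l1 (−0.58) had negative log2 fold changes and Sox2 (0.59) a positive one. None of the 14 passed in limma at an adjusted p under 0.05 (0 and 0). With an intensity trend and robust variances, 1 rose and 4 fell, beside 1.91% and 1.7% of all genes. Fewer markers of other types lay above the receptor background: 4 of 11 for fibroblasts, 3 of 8 for endoderm, 4 of 7 for mesoderm, 2 of 7 for neural cells and 5 of 8 for trophectoderm. The summed trophectoderm intensity was 2089 to 2097 on the control and 1586 to 1692 on the depleted arrays, the neural sum 1340 to 1442 and 1080 to 1160, the mesoderm sum 1104 to 1337 and 983.7 to 1027, the endoderm sum 883.5 to 1121 and 681.1 to 769.5, and the fibroblast sum 1394 to 1684 and 1221 to 1344. These sums were not scaled between arrays, and both depleted arrays had lower median intensities than both controls. After normalization the median log2 fold changes were −0.455 (trophectoderm), −0.279 (neural), −0.22 (mesoderm), −0.353 (endoderm) and −0.193 (fibroblast), against −0.118 for all genes. Without control replicate 2 they were −0.27, −0.173, −0.127, −0.2 and −0.092, against −0.0545 for all genes. The part of array scale in the sums, and of these shifts in the results below, was not tested. In a bulk sample, fewer cells of a type and less RNA per cell cannot be told apart. Usp22 itself had log2 signals of 9.41 and 9.36 in control and 8.23 and 8.29 in depleted cells (log2 fold change −1.12, limma adjusted p = 0.00826).

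Of the 8 genes, 1 rose and 0 fell after Usp22 depletion (limma, p adjusted by Benjamini-Hochberg over the 19938 genes, threshold 0.05). The gene that rose was Kat2b. Among all genes 2.62% rose and 0.105% fell, so 1 called gene in 8 carries no statement about the module. The genes lay on both sides of 0, with a median log2 fold change of 0.08 against −0.12 for all genes. Without control replicate 2 the sign of that median turned (−0.04, against −0.05 for all genes). Both arrays of one group lay beyond both arrays of the other for 6 of the 8 genes. In 3 of them the depleted arrays were higher (Kat2b, Yeats2 and Zzz3) and in 3 lower (Kat2a, Tada1 and Tada3), where 27.4% and 33.3% of all genes were so placed, and Tada2a and Tada2b overlapped. With an intensity trend and robust variances in limma, 1 of the 8 rose and 0 fell, beside 1.91% and 1.7% of all genes. That gene was Kat2b, which passed by a small margin (limma adjusted p = 0.0495). Without control replicate 2 the count was 0 of 8, where 0.331% of all genes rose. If control replicate 1 was left out instead, 3 of 8 rose and 0 fell, where 24.5% of all genes rose and 21.2% fell.

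**Figure D1:**
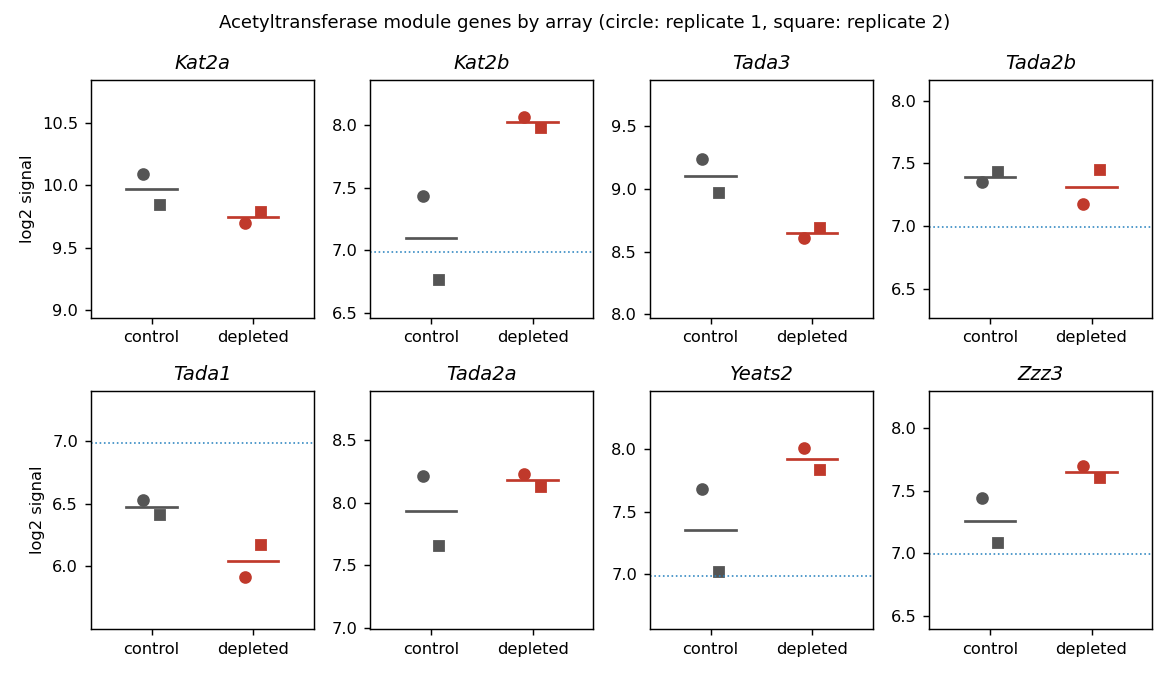
Normalised log2 signal of each gene on the 2 control (grey) and 2 depleted (red) arrays, with circles for replicate 1, squares for replicate 2 and bars for group means; every panel spans the same number of log2 units, and the dotted blue line is the receptor background of 6.99 where it lies in range. The Kat2b signals on the depleted arrays lie 0.55 above the higher control, while control replicate 2 is the lowest array for Kat2b, Yeats2, Zzz3 and Tada2a.

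Kat2b encodes the acetyltransferase PCAF, the alternative catalytic subunit of both complexes. Its deposited intensities were 176 and 118 for control and 271 and 255 for depleted arrays. The normalised log2 signals were 7.43 and 6.76 against 8.07 and 7.98. Control replicate 2 (6.76) thus lay under the receptor background of 6.99, while the other arrays lay above it. The groups did not overlap, but the controls differed from each other by 0.67, more than the gap of 0.55 between the groups. Kat2b rose 1.90-fold, with a mean log2 signal of 7.10 ± 0.47 in control and 8.02 ± 0.06 in depleted cells (SD, n = 2 each; log2 fold change 0.93, standard error 0.27, 95% interval 0.40 to 1.45, limma adjusted p = 0.0334). That standard error was shared by all genes, so the interval and the p do not reflect the SD of Kat2b itself. The log2 fold change was 0.59 without control replicate 2 (limma adjusted p = 0.219) and 1.26 without control replicate 1 (0.000128). The value was 0.89 without depleted replicate 1 and 0.97 without depleted replicate 2. Every fit with 1 array left out has a single array in 1 group, so its spread comes from the other group alone. None of these fits can therefore decide the call. The call was lost on the deposited log2 values without further normalization (0.86, limma adjusted p = 0.102) and, by a small margin, with limma's robust settings (adjusted p = 0.0519).

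Kat2a encodes GCN5, the acetyltransferase on which early development depends. Its deposited intensities were 1090 and 854 for control and 857 and 915 for depleted arrays. The log2 signals were 10.09 and 9.85 against 9.70 and 9.79, so the depleted arrays lay below both controls by only 0.06. On the deposited scale the groups overlapped, since control replicate 2 was the lowest array. Kat2a did not pass the test (log2 fold change −0.22, 95% interval −0.75 to 0.30, limma adjusted p = 0.562), and its value was −0.34 without control replicate 2 and 0.0145 after median centring. The interval includes both the value of Tada3 (−0.46) and 0.

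The paralogs Kat2b and Kat2a therefore had values of opposite sign, except under median centring. To compare their changes, the log2 signal of Kat2a was subtracted from that of Kat2b on each array. Only the shift of this difference between arrays is read, since its level depends on how each probe set binds. It was −2.66 and −3.09 on the control and −1.63 and −1.81 on the depleted arrays. Both depleted arrays lay above both controls, and Kat2b changed by 1.15 more than Kat2a on the log2 scale (SD 0.30 for control and 0.13 for depleted, n = 2 each). The exact two-sided permutation test gave p = 0.333, the smallest that 2 arrays against 2 allow (0.666 adjusted over the 2 paralog pairs compared). The difference ranged from 0.94 to 1.37 when 1 array was left out, and was 0.99 on deposited and on median-centred values.

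Tada3 encodes the adaptor that bridges the acetyltransferase and the ADA2 protein in both complexes. Its log2 signals were 9.24 and 8.97 in control and 8.61 and 8.69 in depleted cells, from deposited intensities of 614 and 470 against 399 and 426. The depleted arrays lay below both controls by 0.28, about the distance between the controls (0.27). Tada3 did not pass the test (log2 fold change −0.46, 95% interval −0.98 to 0.07, limma adjusted p = 0.274). Its value was −0.24 after median centring and −0.59 without control replicate 2.

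Neither of the 2 genes that belong to SAGA and not to ATAC passed the test. Tada1, whose protein is often counted with the structural core of SAGA, was the one gene of the 8 under the receptor background by its mean. Its log2 signals were 6.53 and 6.41 on the control and 5.91 and 6.17 on the depleted arrays (deposited intensities 95.2 and 94.4 against 54.0 and 70.1). The groups did not overlap, and the log2 fold change was −0.43 (limma adjusted p = 0.298) at a signal within the range of the receptor genes. Tada2b, the ADA2 protein of SAGA, had log2 signals of 7.35 and 7.43 on the control and 7.17 and 7.45 on the depleted arrays. Its groups overlapped, and the log2 fold change was −0.08 (95% interval −0.61 to 0.44, limma adjusted p = 0.830), with 0.05 without depleted replicate 1 and −0.04 without control replicate 2.

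The 3 genes that belong to ATAC and not to SAGA had higher group means in depleted cells, and none passed the test. Yeats2 encodes a subunit whose YEATS domain binds acylated lysines of histone H3. Its deposited intensities were 208 and 139 on the control and 260 and 229 on the depleted arrays, and its log2 signals 7.69 and 7.02 against 8.01 and 7.83. The depleted arrays were above both controls by 0.15, while the controls differed by 0.67. The log2 fold change was 0.57 (95% interval 0.05 to 1.10, unadjusted p = 0.0332, limma adjusted p = 0.194). It moved to 0.24 without control replicate 2 and to 0.91 without control replicate 1.

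Zzz3 encodes the ATAC subunit with a ZZ zinc finger that reads the histone H3 tail. Its log2 signals were 7.44 and 7.08 on the control and 7.70 and 7.60 on the depleted arrays. The groups were separated by 0.17 (log2 fold change 0.39, 95% interval −0.13 to 0.92, limma adjusted p = 0.333). Without control replicate 2 the value was 0.21, and without control replicate 1 it was 0.57. Tada2a, the ADA2 protein of ATAC, had log2 signals of 8.21 and 7.65 on the control and 8.23 and 8.12 on the depleted arrays. Control replicate 1 lay between the depleted arrays (8.23 and 8.12), and the log2 fold change of 0.25 (limma adjusted p = 0.522) became −0.03 without control replicate 2.

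The changes of the ADA2 paralogs were compared in the same way as those of Kat2b and Kat2a. The within-array difference of Tada2b minus Tada2a was −0.86 and −0.22 on the control and −1.06 and −0.68 on the depleted arrays, which overlapped. The difference in log2 fold change was −0.33 (exact two-sided permutation p = 0.667, also 0.667 adjusted over the 2 pairs), and it was −0.0096 without control replicate 2. With a smallest possible p of 0.333, this test could not have detected a difference for either pair.

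**Figure D2:**
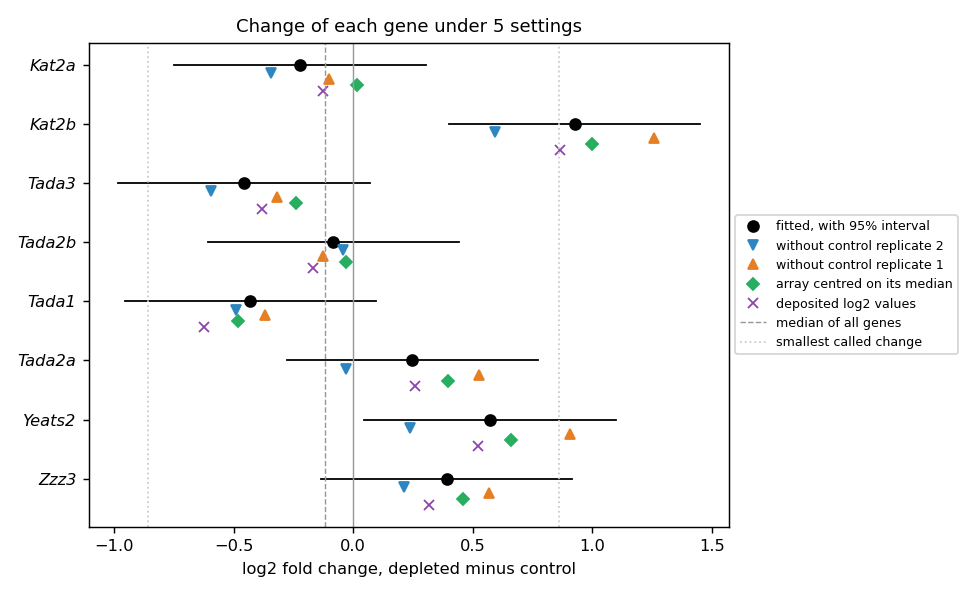
Log2 fold change of each gene, depleted minus control, as fitted on all 4 arrays with its 95% interval (black), without control replicate 2 (blue), without control replicate 1 (orange), after median centring of the arrays (green) and on the deposited log2 values (purple); dotted lines mark the smallest change that passed for any gene, 0.86. Kat2b alone lies past that line as fitted, at 0.93, and the points without control replicate 2 lie nearest to 0 for Kat2b, Yeats2, Zzz3 and Tada2a.

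The scaling shifts these values, by amounts that differ between genes. The median of all genes was −0.12 as normalised, −0.24 on the deposited log2 values and −0.09 after median centring. Relative to the median of all genes in the fit used here, Kat2b stood at 1.05, Yeats2 at 0.69, Zzz3 at 0.51, Tada2a at 0.37, Tada2b at 0.04, Kat2a at −0.11, Tada1 at −0.31 and Tada3 at −0.34. Tada2b thus changes sign with the point of reference, and the Kat2a value turns under median centring.

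The genes above the receptor background whose pattern over the 4 arrays was most like that of Kat2b were Mettl25, Kcnk5 (a potassium channel gene) and Abcg1 (a sterol transporter gene). Likeness was the Euclidean distance between log2 signals after each gene's mean was subtracted, and it was 0.044, 0.054 and 0.056 for them. Their log2 fold changes were 0.97, 0.97 and 0.88, or 0.64, 0.65 and 0.56 without control replicate 2, on which each was lowest. They were chosen for likeness to a called gene, so their own values add no evidence. Among the other 7 genes of the module, Yeats2 was the nearest to Kat2b at 0.36, followed by Zzz3 at 0.58 and Tada2a at 0.69. Of the genes above the receptor background, 7.88% were nearer to Kat2b than Yeats2 was. The remaining 4 were at 1.17 (Tada2b), 1.20 (Kat2a), 1.42 (Tada3) and 1.43 (Tada1).

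**Figure D3:**
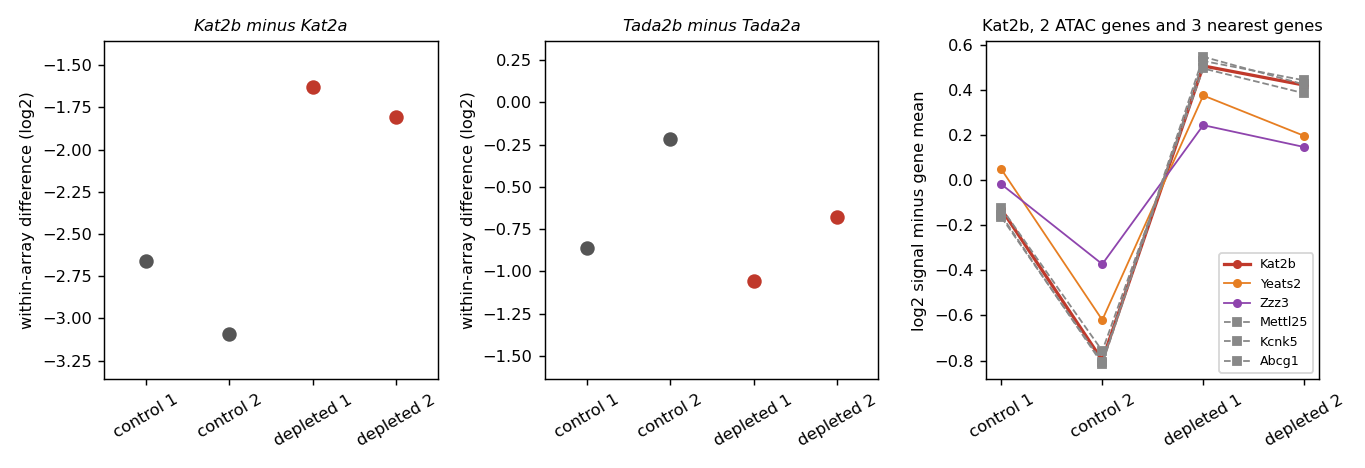
Left and middle, the log2 signal of one paralog minus that of the other on each array, for Kat2b minus Kat2a and Tada2b minus Tada2a (grey, control; red, depleted); right, log2 signal minus the gene's mean over the 4 arrays for Kat2b, Yeats2, Zzz3 and the 3 genes nearest to Kat2b, with lines joining the points of a gene. The Kat2b minus Kat2a difference is higher on both depleted arrays (−1.63 and −1.81) than on the controls, the Tada2 difference overlaps, and all 6 genes of the right panel are lowest on control replicate 2.

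The partners of the module were read from 7 lists of 78 measured genes in all, of which 1 rose and 1 fell, beside 2.62% and 0.105% of all genes. The SAGA core and other SAGA subunits held the gene that rose, Taf9b, a paralog of the histone-fold protein gene Taf9 (log2 fold change 1.59, limma adjusted p = 6.04e-05). Taf9b was under the receptor background by its mean, with log2 signals of 5.57 and 5.45 on the control and 7.24 and 6.96 on the depleted arrays. The other 11 of its list did not pass, among them Taf9 (0.69), the splicing factor gene Sf3b3 (−0.50) and Supt20 (−0.50), and the list median was 0.11, which turned to −0.20 without control replicate 2. The SAGA deubiquitinase list held the gene that fell, its target Usp22, and 0 of its other 6 passed, with Atxn7l2, Atxn7l3b and Atxn7l3, genes of subunits or relatives of the module, at −0.46, 0.45 and −0.43. Without control replicate 2 the first pair stood at −0.18 and 0.18, and the median of this list moved from −0.37 to −0.18.

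The remaining ATAC genes had a median of 0.31 over 8 measured, which include Sgf29, the tudor-domain subunit of both complexes. None of the 8 passed (0 higher, 0 lower), and 4 were higher and 3 lower without overlap, beside 27.4% and 33.3% of all genes. Chrac1 and Mbip stood at 0.56 and 0.55, Dr1 (the NC2 beta gene) at 0.55 and Sgf29 at 0.46 (limma adjusted p from 0.205 to 0.274). On the other side lay Kat14, the gene of the second acetyltransferase of ATAC, at −0.25 (−0.41 without control replicate 2). Without control replicate 2 the median was 0.17, Mbip moved to 0.35 and Dr1 to 0.27, while Sgf29 stood at 0.40. 

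Other lysine acetyltransferases did not pass either (0 of 13, median −0.05, and −0.30 without control replicate 2). Clock, the circadian regulator with acetyltransferase activity, stood at 0.76, Ncoa1, under the receptor background by its mean, at 0.73, Kat8, the H4K16 acetyltransferase gene, at 0.53 (0.32 without control replicate 2) and Gtf3c4 at 0.51 (limma adjusted p from 0.0863 to 0.240). The coactivator gene Crebbp was at −0.41 and its paralog Ep300 at 0.28 (0.10 without control replicate 2). Of 16 deacetylase genes 0 passed, with a median of −0.36, or −0.23 without control replicate 2. Without overlap, 10 were lower and 2 higher, beside 33.3% and 27.4% of all genes. Sirt1, an NAD-dependent deacetylase gene, stood at 0.77 (0.24 without control replicate 2), Hdac7 at −0.65, Hdac5 at −0.50 and Hdac2, a class I deacetylase gene, at 0.50. Counted likewise without overlap, 5 of the 13 other acetyltransferases were lower and 5 higher. In the SAGA core list 4 of 12 were lower and 3 higher, and in the deubiquitinase list, with Usp22, 4 of 7 and 2.

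The readers of acetylated histones had a median of −0.30 over 11 measured genes, 0 of which passed, with Mllt3 at 0.65, Brpf1 at −0.56, Yeats4 at 0.50 and the remodeller gene Bptf at −0.49, the last from the brighter of 2 probe sets. Of these 11 genes, 7 were lower and 3 higher without overlap, beside 33.3% and 27.4% of all genes. The genes of acetyl-CoA supply, which provide the acetyl donor, had a median of 0.34 over 11 measured genes, and 7 were higher and 1 lower without overlap, beside 27.4% and 33.3% of all genes. None of the 11 passed (0 and 0). Acss1, a mitochondrial acetyl-CoA synthetase gene under the receptor background by its mean, stood at 0.81, the dehydrogenase gene Dld at 0.71 (0.42 without control replicate 2) and the pyruvate dehydrogenase kinase genes Pdk3 and Pdk1 at 0.59 and 0.54. Leaving out control replicate 2 gave a median of 0.21 here and −0.05 for all genes.

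**Figure D4:**
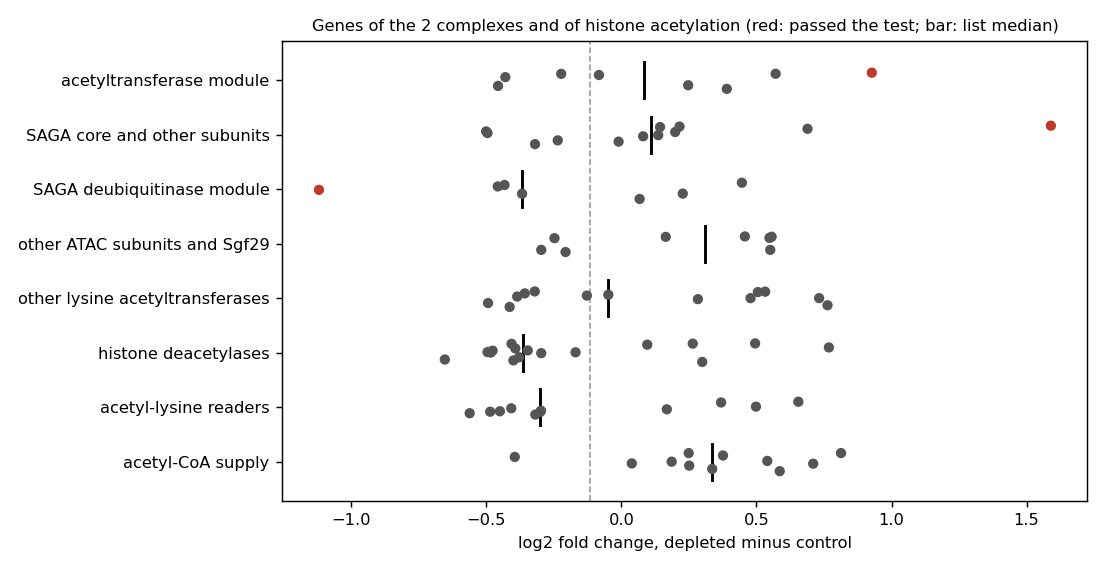
Log2 fold change, depleted minus control, of each measured gene of the acetyltransferase module and of 7 lists of related genes, with a bar at the median of each list, red points for genes that passed the test (limma adjusted p under 0.05) and a dashed line at the median of all genes, −0.12. The red points are Kat2b at 0.93, Taf9b at 1.59 and Usp22 at −1.12.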

How the data were processed

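Per the labels' protocols, total RNA was column-purified, made into biotin-labelled cDNA and hybridised to Affymetrix arrays. The authors deposited 1 linear intensity per probe set and array for 28856 probe sets; how they were summarised and normalized is not given in the sources used here. Array medians were 110 to 128. The log2 intensities were quantile-normalized between arrays. GEO's platform annotation, which can be old, gave 1 symbol to 21789 probe sets, several to 1621 and none to 5446; 21698 matched RefSeq (GRCm38.p6) by gene ID. The brightest probe set per gene left 19938 genes. The files name no build, so coordinates belong only to the RefSeq promoter windows.

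The groups were compared by limma 3.58.1 (R 4.3.3; lmFit, eBayes, two-sided). The prior degrees of freedom were infinite, so all genes shared a standard error of 0.27 and the smallest called change was 0.86; intervals are normal 95% intervals from that error. The limma call was tested on simulated data with the same spread for every gene and array. No simulated array stood apart as control replicate 2 did. The number of arrays limits the precision, and the smallest p of an exact test with 2 arrays a group is 0.333. Named genes were the 8 members, Usp22, the 4 lowest p of each list and the 3 genes nearest to the member with the lowest p. Ep300, Crebbp and Kat14 were added after their values were seen. Members and lists were chosen with earlier results of these data known. Alternatives were other scaling, a pseudocount of 16, other variance models, filters on dim genes, averaged probe sets, a replicate block and leaving out each array.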

Additional observations from a re-analysis of the deposited data

How the results depend on the processing

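The log2 fold changes of the 8 genes can move under 7 of the alternatives, the 3 scalings and the 4 fits with 1 array left out, and 3 of these 56 values turned sign; the other alternatives change only the p-values. The sign turned for Kat2a with each array centred on its median (0.0145), for Tada2a without control replicate 2 (−0.0324, the lowest of a leave-one-out range up to 0.526) and for Tada2b without depleted replicate 1 (0.0533, the highest of a range down to −0.22). The count of the 8 genes that rose, 1 as fitted, was 0 on deposited log2 values and with robust settings, and 0 to 3 with 1 array left out, and the count that fell was 0 under every alternative run. Of the 78 related genes, the count that rose, 1 as fitted, was 4 with each array centred, with the intensity trend and robust settings and above the receptor background, 3 with the dimmest 0.25 of genes left out, 2 with a pseudocount of 16, with the trend alone and with the replicate block, and 0 to 25 with 1 array left out. The count that fell, also 1, was 3 with the trend, 5 with the trend and robust settings, and 0 to 10 with 1 array left out. The cause of these moves was not tested. The counts of all 19938 genes moved under the same settings. With each array centred 927 rose, and with the pseudocount 659. The trend gave 326 higher and 286 lower, and the trend with robust settings 381 and 339. With the dimmest genes left out 739 of 14953 rose, and above the receptor background 674 of 9753. Each fit with 1 array left out has a single array in 1 group, so its counts decide nothing about the related genes. With limma, all genes gave 523 higher and 21 lower as fitted, and 66 and 2 when control replicate 2 was left out. Leaving out depleted replicate 1 gave 0 and 0 by limma (540 and 48 at an unadjusted p under 0.05). The labels do not say that equal replicate numbers mark shared cultures, and deviations of same-numbered arrays correlated at 0.105. With the replicate block, 856 genes rose and 42 fell, and the Kat2b adjusted p was 0.0175; in this balanced design the block cannot move a fold change, so the paralog differences stay at 1.15 and −0.33 by construction. Tada1 drops out above the receptor background. Taf9b does as well, so the 4 related genes counted there do not include the 1 that rose as fitted.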
